A study of Mus musculus with 12 samples.

Results

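Interferon-stimulated genes are the genes that cells switch on when interferon binds its receptors. A list of 42 of them was followed in mouse T-cell acute lymphoblastic leukaemia (T-ALL) and in normal thymocytes, each with and without the gene for MBD2, a protein that binds methylated DNA. The list was made of known members and not of measured values. Of the 42 genes, 40 had a probe set that names 1 gene, out of 18193 genes measured. Isg15 and Ifi44 had no such probe set and have no value here. Where a gene had several probe sets, the one with the highest mean over the 12 arrays stood for it, and these 40 were chosen from 62.

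The series holds 12 Affymetrix mouse arrays, 3 in each of 4 groups, and each array gives 1 intensity per probe set. The leukaemia groups came from recipient mice that had received Notch1-driven cells of MBD2 wild-type or MBD2-/- genotype. GFP+ cells were sorted from their bone marrow once GFP+ cells were over 50% of blood white cells. The thymocyte groups are CD4+CD8+ (double-positive, DP) cells sorted from the thymus of untransplanted MBD2 wild-type or MBD2-/- mice. Leukaemias and thymocytes therefore differ in tissue, transplantation and host as well as in transformation, and these cannot be told apart. The labels give no sex, age, strain or litter, and do not say how many donor leukaemias the recipients shared, so the tests see only the scatter among these arrays, which may be technical. Each sample was labelled from 7 µg of total RNA. In such bulk samples, fewer cells of a type and less RNA per cell cannot be told apart.

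As background, type I interferons (the alpha and beta forms) signal through the receptor chains IFNAR1 and IFNAR2 and the kinases JAK1 and TYK2. These activate ISGF3, a complex that holds STAT2 and IRF9 and binds a DNA motif called the interferon-stimulated response element (ISRE). Type II interferon (gamma) signals through IFNGR1, IFNGR2, JAK1 and JAK2, leads to binding at the gamma-activated sequence (GAS), and acts further through IRF1. The induced genes sense viral RNA, block its translation, degrade it, or raise antigen presentation. Usp18 and the SOCS genes damp the signal. T cells and their precursors can respond to both kinds of interferon. Many of these genes respond to both, so the split used here, 31 members led by type I signalling and 11 by type II (Irf1, Irf8, Ifi47, Cxcl10, Gbp2, Igtp, Irgm1, Iigp1, Psmb8, Psmb9 and Tap1), is a convention.

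The labels were checked first. Mbd2 intensity was 957, 742 and 762 on the wild-type leukaemia arrays and 41.4, 55.7 and 66.0 on the knockout ones, and 1372, 993 and 1043 against 67.6, 84.3 and 64.4 in thymocytes. Xist averaged 4193 in wild-type and 36.5 in knockout leukaemias, and Y-linked Eif2s3y 7.31 and 519, so in the leukaemias genotype and the sex of the cells cannot be told apart. Both thymocyte groups had low Xist and clear Eif2s3y, so sex also differs between wild-type leukaemias and wild-type thymocytes and enters the difference of the deletion's effects, where it cannot be told apart either. Control transcripts added before labelling (poly-A controls) gave signal on 5 arrays (wild-type leukaemia 1 and 2, knockout leukaemia 1, wild-type thymocytes 1 and 2) and none on the other 7. The highest of 27 control probe sets (those of the poly-A controls and of trp) on arrays without poly-A signal gave an intensity of 35.3. This is used here as the background level. T-lineage markers were above it in all groups (8 of 8), as were 9 of 9 DP markers in both thymocyte groups.

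The promoters of members that passed between leukaemia genotypes and of members that did not pass are shown because both hold the ISRE. Windows from 250 bases before to 50 bases after the start of each gene came from RefSeq (GRCm38.p6) for 32 of the 42 members. No window was available for Usp18, Rtp4, Oas2, Dhx58 and Parp14, which were higher in the knockout leukaemias, as described below. Nor was there one for Parp9, Mx1, Mx2, Zbp1 and Iigp1. The ISRE was searched as GAAA, any 2 bases and GAAA again, on either strand (TTTC, 2 bases, TTTC), with overlapping matches allowed. It was found in 14 of these 32 members (43.8%), against 3.99% of the 27025 genes with a window. The GAS pattern TTCNNNGAA, which reads the same on both strands, was found in 10 (31.2%) against 9.55%. The sequences below hold 100 bases around the ISRE match, with the match in capitals and each written 5′ to 3′ on the strand of the gene.
Trim30a (chr7:104465175-104465274, minus strand): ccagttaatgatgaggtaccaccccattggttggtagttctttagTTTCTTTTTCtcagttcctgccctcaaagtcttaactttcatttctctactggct
Gbp2 (chr3:142620559-142620658, plus strand): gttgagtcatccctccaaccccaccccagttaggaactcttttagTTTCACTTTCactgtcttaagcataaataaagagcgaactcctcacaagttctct
Irgm1 (chr11:48871393-48871492, minus strand): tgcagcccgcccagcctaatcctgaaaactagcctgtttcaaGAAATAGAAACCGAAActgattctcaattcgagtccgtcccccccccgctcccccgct
Oas3 (chr5:120777680-120777779, minus strand): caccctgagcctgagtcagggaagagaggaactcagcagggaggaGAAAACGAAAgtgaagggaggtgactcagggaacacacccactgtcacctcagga
Oas1a (chr5:120907488-120907587, minus strand): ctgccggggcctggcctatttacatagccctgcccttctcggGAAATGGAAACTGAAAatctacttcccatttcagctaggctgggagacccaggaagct
Ifih1 (chr2:62646206-62646305, minus strand): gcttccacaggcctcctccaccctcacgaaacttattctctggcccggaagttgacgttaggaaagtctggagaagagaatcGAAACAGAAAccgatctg
Ifit1 (chr19:34640749-34640848, plus strand): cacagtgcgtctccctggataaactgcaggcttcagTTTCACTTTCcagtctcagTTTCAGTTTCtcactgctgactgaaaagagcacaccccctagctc
Ifit3 (chr19:34583345-34583444, plus strand): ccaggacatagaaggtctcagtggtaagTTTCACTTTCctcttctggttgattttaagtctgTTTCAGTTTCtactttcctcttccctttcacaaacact

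The first 6 belong to genes that were higher in the knockout leukaemias, as described next, and the last 2 to genes that did not pass. Stat2, Bst2, Eif2ak2, Igtp and Cxcl10, which did not pass in that comparison either, also held a match. An ISRE match was thus present in 6 of 15 members that passed and 7 of 15 that did not, and a GAS match in 2 of 15 and 8 of 15. Among those that did not, Ifit1, Ifit3 and Cxcl10 averaged below background in both leukaemia groups. Whether these genes changed cannot be read, so they do not stand for genes shown to be unchanged. No match lay in the windows of Irf9, Irf7 or Oasl2. A match is a run of letters in this window and says nothing of what binds there.

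Deletion of MBD2 in the leukaemias went with higher levels of 20 of the 40 members, and none passed as lower. Across all 15420 genes tested, 9.19% were higher and 6.98% lower by the same limma test (Benjamini-Hochberg adjusted p under 0.05). The median log2 difference of the members, knockout minus wild type, was 0.83, against −0.06 for all genes tested. The knockout and wild-type arrays did not overlap for 27 members, all of them higher in the knockout, where 15% of all genes did so upward and 18.4% downward. All log2 differences are on log2(intensity + 16), which understates changes of dim genes. When each array was centred on its 75th percentile, the share of higher genes among all calls moved from 56.8% to 45.0%. With the replicate number as a block, 27 members were higher and 1, Ifit2, was lower, where 1935 and 1936 of all 15420 genes were. The 7 added higher calls were Irf1, Mx1 (on average below background in both groups), Parp9, Eif2ak2, Isg20, Ifi35 and Iigp1.

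**Figure D1:**
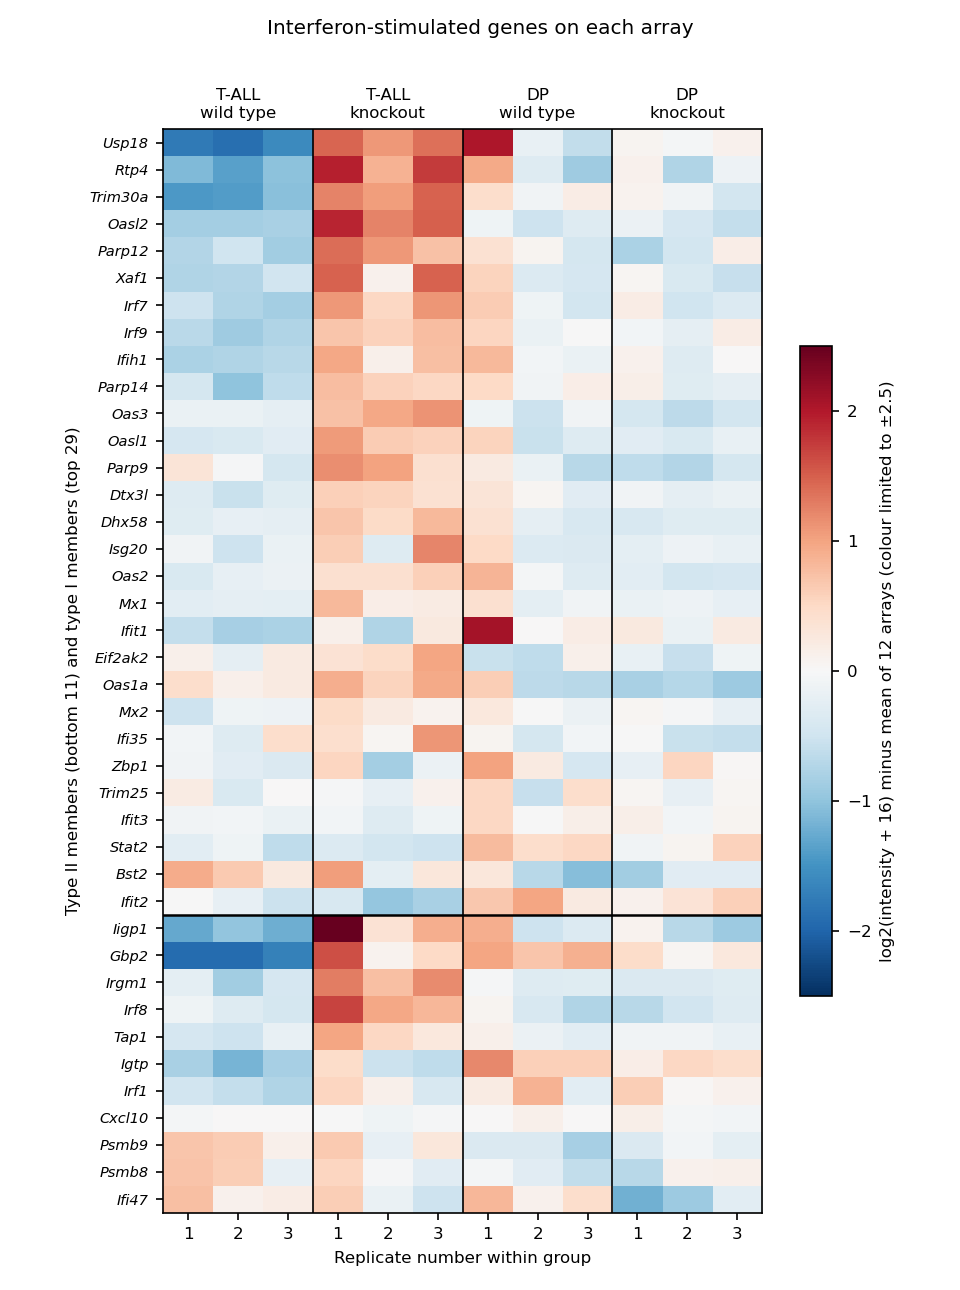
Heat map of the 40 members (rows, type I above the line and type II below, each sorted by the knockout minus wild-type difference in leukaemia) on the 12 arrays (columns, 3 per group). Colour is log2(intensity + 16) minus the mean of the member over all arrays. The wild-type leukaemias are lowest of the 4 groups by mean for 24 of 40 members and the knockout leukaemias highest for 27 of 40.

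Among the transcription factors of the response, 3 of 5 members rose. Irf9, the DNA-binding part of ISGF3, read 125, 105 and 117 in wild-type and 344, 319 and 367 in knockout leukaemias (log2 difference 1.45, SE 0.11, adjusted p = 0.000203). Irf7, which amplifies type I interferon production, read 63.8, 51.9 and 47.5 against 226, 148 and 229 (log2 difference 1.61, SE 0.18, adjusted p = 0.00155). Neither gene's groups overlapped. Irf8, a factor of myeloid and B cells that interferon gamma also induces, ranged from 53.5 to 71.5 in wild type and 151 to 288 in the knockout (log2 difference 1.45, SE 0.23, adjusted p = 0.00687). Irf1, the main factor of the gamma response, ranged from 556 to 676 and 716 to 1386 and did not pass (log2 difference 0.70, SE 0.23, adjusted p = 0.095; adjusted p = 0.0177 with the replicate block). Stat2, the partner of Irf9 in ISGF3, gave 74.4, 85.0 and 53.8 against 69.5, 62.7 and 60.3, which overlapped (log2 difference −0.10, SE 0.15, adjusted p = 0.729).

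Usp18, the ISG15 protease that also blocks signalling at IFNAR2, rose from below the background level. It read 22.1, 19.0 and 27.2 in wild-type leukaemias, all below that level, and 337, 258 and 318 in the knockouts (log2 difference 3.05, SE 0.14, adjusted p = 2.72e-05). Against the background level the geometric mean of the knockouts was at least 8.58-fold higher, and the later bounds use geometric means too. Rtp4, an interferon-induced chaperone with antiviral activity, read 127, 104 and 135 against 1162, 546 and 1017 (log2 difference 2.68, SE 0.28, adjusted p = 0.000951). The knockout replicate 2 was the lowest of its group for Usp18 and Rtp4 and still lay above every wild-type array. The other restriction factors gave no call without the block. Mx1 lay at 14.8 to 15.9 and 25.6 to 49.0 (adjusted p = 0.0589, or 0.0324 with the block). Its group means, 15.3 and 33.8, were both under the background level, so the size of its change cannot be read. Mx2 lay at 33.9 to 50.3 and 59.6 to 83.8 (adjusted p = 0.0803). Bst2 (tetherin), which holds virions at the cell surface, lay at 319 to 521 and 224 to 571 (adjusted p = 0.716).

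All 5 members of the 2-5A synthetase family were higher, the one functional group in which every measured gene passed besides Usp18. These proteins sense double-stranded RNA, and the catalytic ones make the messenger that activates RNase L. Oasl2 read 7.56, 7.59 and 8.26 in wild-type and 144, 84.5 and 105 in knockout leukaemias (log2 difference 2.39, SE 0.17, adjusted p = 0.000196). Its wild-type signal is below background, so the difference is at least 3.07-fold. Oas3 read 51.0, 51.1 and 48.5 against 109.8, 132 and 149 (log2 difference 1.13, SE 0.12, adjusted p = 0.00113). Oasl1 read 58.7, 60.4 and 66.4 against 194, 139 and 134 (log2 difference 1.12, SE 0.15, adjusted p = 0.00289). For these 3 genes the lowest knockout array was above the highest wild-type array. Oas2 gave a log2 difference of 0.71 (adjusted p = 0.00587) and Oas1a one of 0.54 (adjusted p = 0.0498). The call of Oas1a was lost in 14 of 21 alternatives. Genes of this family have close copies, and a probe set may read more than 1 of them.

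Of the cytoplasmic nucleic acid sensors, 2 of 3 rose. Dhx58 (LGP2) read 50.6, 55.4 and 53.7 against 116, 98.7 and 128 (log2 difference 0.90, SE 0.11, adjusted p = 0.0023), with no overlap. Ifih1 (MDA5) ranged from 61.7 to 66.9 and 131 to 245 (log2 difference 1.35, SE 0.21, adjusted p = 0.00559). Zbp1, a sensor of Z-form nucleic acid, ranged from 76.6 to 96.9 and 50.2 to 158 and was not called (log2 difference 0.09, adjusted p = 0.896). Its other probe set, dimmer and less scattered in the knockouts, averaged 40.5 and 61.2 (log2 difference 0.45) and was not tested alone. Ddx58 (RIG-I), a related sensor outside the list, was higher (log2 difference 0.97, SE 0.11, adjusted p = 0.00131).

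Of the ADP-ribosyltransferase and ubiquitin ligase genes, 4 of 6 rose. Trim30a, a TRIM protein that interferon induces in mouse cells, read 134, 138 and 179.6 in wild-type and 938, 822 and 1109.8 in knockout leukaemias (log2 difference 2.55, SE 0.16, adjusted p = 0.000107). Parp12, an antiviral ADP-ribosyltransferase, read 49.6, 61.3 and 43.6 against 272, 216 and 166 (log2 difference 1.78, SE 0.19, adjusted p = 0.00106). Parp14, of the same family, read 166, 108 and 143 against 405, 353 and 337 (log2 difference 1.31, SE 0.16, adjusted p = 0.00212). The groups did not overlap for any of the 3. Dtx3l, the ligase that works as a pair with PARP9, read 400.1, 342 and 409 against 779, 752 and 669 (log2 difference 0.91, SE 0.12, adjusted p = 0.00237). Its partner Parp9, whose gene lies beside it, read 581, 452 and 338 against 1065, 948 and 621 and missed the threshold (adjusted p = 0.0572), which it passed with the block (adjusted p = 0.00174). Trim25, the ligase that modifies RIG-I, stood at 1327 to 1981 and 1497 to 1865 (log2 difference 0.02, adjusted p = 0.962). Other probe sets of the members above background had the same sign as the one used in 13 of 15 cases, the exceptions being a probe set each of Trim25 and Tap1.

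The effectors that bind RNA or stop translation gave no call in either direction without the replicate block. Ifit1, Ifit2 and Ifit3 encode proteins that bind foreign RNA and are among the strongest interferon-induced genes in many cells. Ifit2 read 245, 213 and 166 in wild-type and 184, 120.1 and 134 in knockout leukaemias (log2 difference −0.47, SE 0.19, adjusted p = 0.161). With the block it passed as lower (adjusted p = 0.0404). Ifit1 lay at 10.1 to 14.6 and 11.5 to 39.0 and Ifit3 at 17.6 to 19.7 and 14.0 to 20.0, so Ifit3 was below background in both groups and its change cannot be read. Eif2ak2 (PKR), which halts translation, had a log2 difference of 0.56 (adjusted p = 0.117, or 0.0261 with the block), and the exonuclease gene Isg20 one of 0.76 (adjusted p = 0.233, or 0.0497 with the block). Among the remaining type I genes, the pro-apoptotic Xaf1 rose (log2 difference 1.67, SE 0.36, adjusted p = 0.023) and Ifi35 did not pass (adjusted p = 0.351, or 0.019 with the block).

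**Figure D2:**
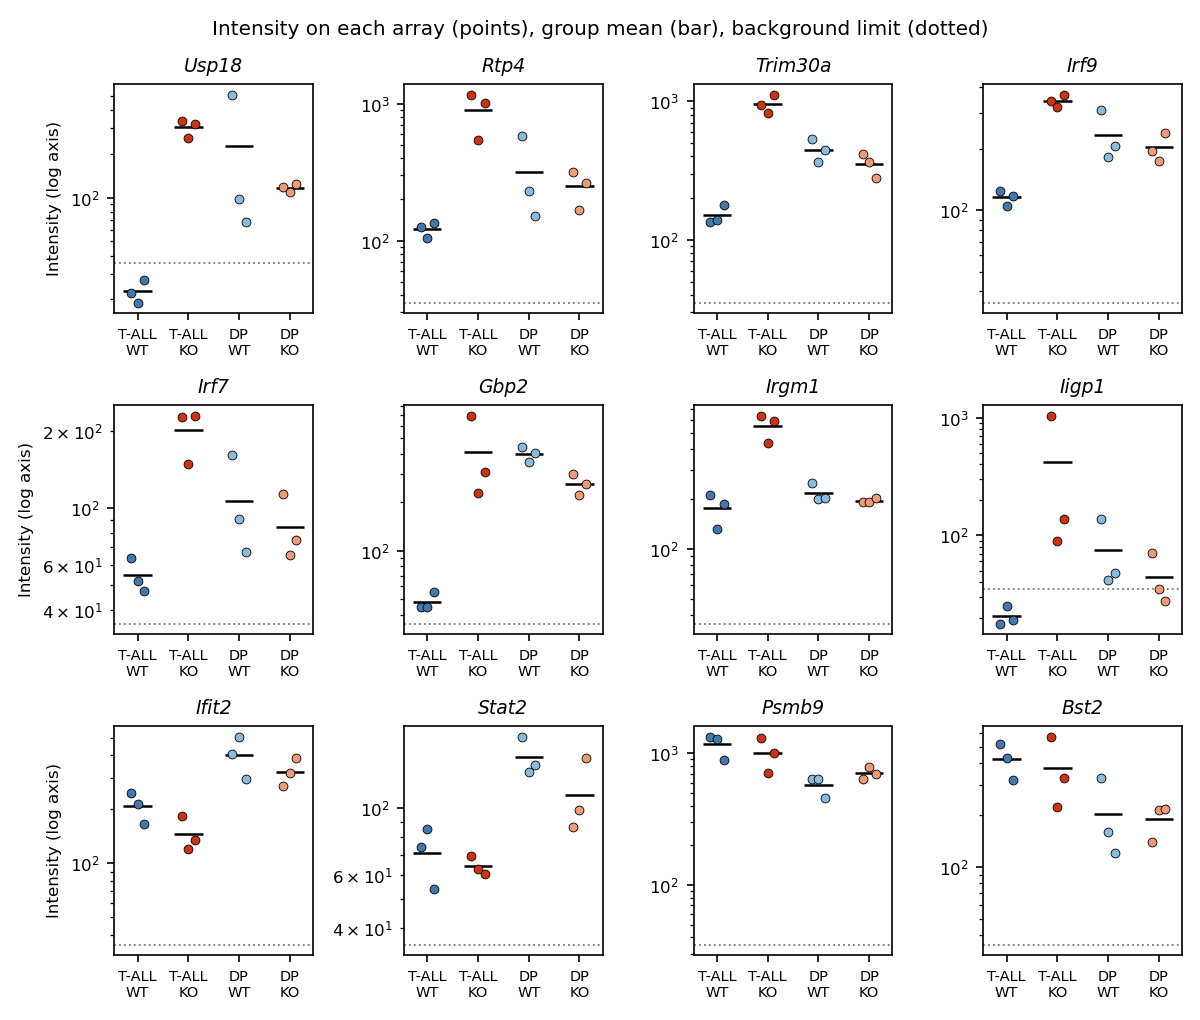
Intensity of 12 members on each array (points, log axis), with the group mean as a bar and the background level of 35.3 dotted; WT is MBD2 wild type and KO is MBD2-/-. Knockout leukaemias exceed wild-type leukaemias on every array for Usp18, Rtp4, Trim30a, Irf9, Irf7, Gbp2, Irgm1 and Iigp1, and overlap them for Ifit2, Stat2, Psmb9 and Bst2.

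The interferon-inducible GTPases, which attack the vacuoles of intracellular pathogens and respond mainly to interferon gamma, were split. Gbp2 read 44.7, 45.0 and 55.1 in wild-type and 689.9, 229 and 308 in knockout leukaemias (log2 difference 2.58, SE 0.37, adjusted p = 0.00389). Irgm1 read 212, 131 and 186 against 633, 434 and 592 (log2 difference 1.57, SE 0.21, adjusted p = 0.00289). Both were separated by group. Iigp1 read 17.8, 25.1 and 19.2, all below background, against 1034, 89.7 and 137 (log2 difference 2.81, SE 0.79, adjusted p = 0.0572), which did not pass (adjusted p = 0.023 with the block). The geometric mean of the knockouts was at least 6.62-fold that of wild type. Knockout replicate 1 stood far above the other two, and Iigp1 passed without it and without knockout replicate 2, but not without knockout replicate 3. Igtp (adjusted p = 0.174) and Ifi47 (log2 difference −0.37, adjusted p = 0.502) did not pass.

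Antigen-processing members moved unequally. Tap1, which carries peptides into the endoplasmic reticulum, ranged from 466 to 598 in wild-type and 819 to 1364 in knockout leukaemias (log2 difference 0.96, SE 0.20, adjusted p = 0.019). Psmb8 and Psmb9, the induced subunits of the immunoproteasome, overlapped between the groups, at 2075 to 3923 and 1951 to 3472 for Psmb8 (adjusted p = 0.588) and 898 to 1335 and 708 to 1301 for Psmb9 (adjusted p = 0.601). Psmb9 and Tap1 are neighbouring genes that share a promoter region. Cxcl10, a chemokine that attracts T cells, was below background on every leukaemia array (20.0 to 21.4 and 18.4 to 20.8).

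By class, 16 of 29 type I members and 4 of 11 type II members were higher, where 9.19% of all genes were. Their median log2 differences were 0.90 and 0.70. The 4 type II members were Irf8, Gbp2, Irgm1 and Tap1. The difference between the classes was not tested, and the order of their medians depended on the setting. The type I and type II medians were 0.63 and 0.66 with a constant of 64 and 0.90 and 0.94 with array weights. Without knockout replicate 3 they were 0.83 and 0.94. The median deviation of the type I members from their 12-array mean was −0.33, −0.38 and −0.37 on the wild-type leukaemia arrays and 0.74, 0.45 and 0.73 on the knockout ones. For the type II members it was −0.24, −0.53 and −0.41 against 0.66, 0.09 and 0.27. Knockout replicate 1 was the highest of its group for all 11 type II members and for 17 of 29 type I members, where 30.0% of all genes were highest on that array. Knockout replicate 2 was highest for none of the 40, where 36.2% of all genes were highest on it. Without knockout replicate 1, 19 members were higher, and the class medians were 0.76 and 0.47.

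**Figure D3:**
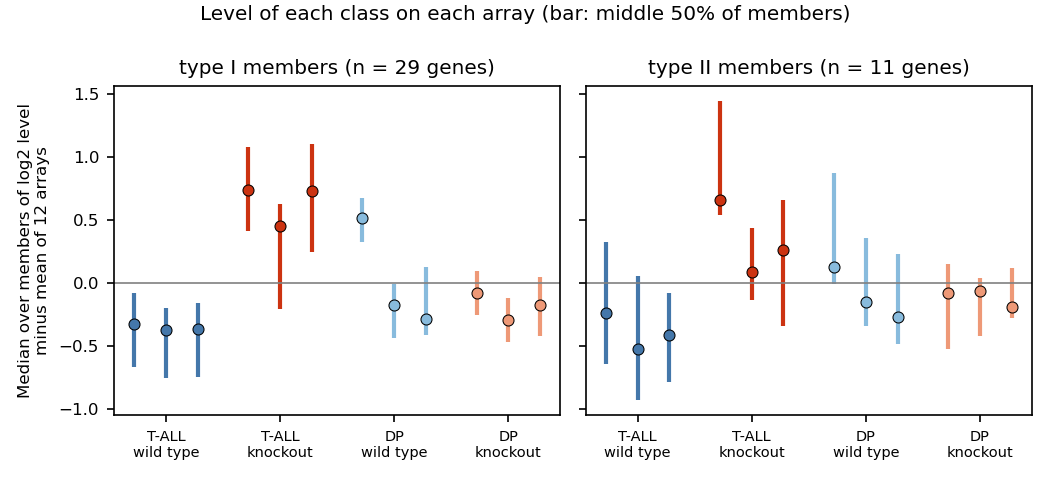
Median over the type I (left, 29 genes) and type II (right, 11 genes) members of log2(intensity + 16) minus the mean over 12 arrays, 1 point per array, with a bar over the middle 50% of members. For type I, the 3 knockout leukaemias (0.45 to 0.74) lie above the 3 wild-type ones (−0.38 to −0.33), and wild-type thymocyte replicate 1 (0.51) stands apart from replicates 2 and 3 (−0.17 and −0.29).

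The 20 calls were examined against features that moved with genotype. The arrays with poly-A control signal hold wild-type leukaemias 1 and 2 and knockout leukaemia 1, and those without it hold wild-type leukaemia 3 and knockout leukaemias 2 and 3. In both sets all 20 members kept their direction. This was bound to hold, since the knockout and wild-type arrays of these 20 do not overlap, so it is no check on the poly-A feature. In the set with signal 20 of the 20 passed, where 11% of all genes were called higher. In the set without, no gene of any kind was called, and 17 of 20 had an unadjusted p under 0.05, as did 13.2% of all genes. Either fit rests on 3 arrays and takes a group with 1 array to vary like the other. The Gapdh 3' over 5' signal ratio, a measure of RNA integrity, was 0.969, 1.02 and 2.48 in wild-type and 0.964, 2.00 and 2.98 in knockout leukaemias. With it as a covariate 23 members were higher, as were 1707 of all 15420 genes. Of the marker lists, plasmacytoid dendritic cell genes (the main interferon-producing cells) summed to 1836 to 2091 in wild-type and 2100 to 3824 in knockout leukaemias, with Siglech and Pld4, which are particular to these cells, at or below background in both. Of the 9 genes of that list tested, Tcf4 (at least 9.02-fold) and Spib (at least 1.36-fold) were higher, both from below background, and Ly6d was lower (log2 difference −3.05, adjusted p = 0.000133). NK-cell genes summed to 87.7 to 96.8 and 251 to 402 over 5 measured genes, of which Klrd1 made up most (309, 315 and 175 in the knockouts), while Ncr1, Klre1 and Klra8 were at or below background. B-cell genes summed to 213 to 227 and 254 to 324, and 0 of 9 averaged above background in wild type and 3, Cd79b, Blnk and Vpreb1, in the knockout. Cd79b was called higher (at least 1.32-fold, adjusted p = 0.0248), while Cd79a, Pax5, Ms4a1, Ebf1, Igll1 and Vpreb3 were at or below background in both. Monocyte and macrophage genes were lower in sum in the knockouts (340 to 447 against 484 to 521), as were neutrophil genes (304 to 960 against 1179 to 2075). Conventional dendritic cell genes (209 to 235 against 220 to 256) and erythroid genes (224 to 266 against 256 to 385) overlapped. The sums of the conventional dendritic, monocyte and macrophage, neutrophil and erythroid lists were thus not above the wild-type range in the knockouts. No gene of these lists passed as higher, but single genes could differ from their sum. The sign was higher for 1 of 10 tested neutrophil genes (log2 difference 0.87) and 1 of 6 erythroid genes (log2 difference 0.68). DP thymocyte genes were lower in sum as well (4146 to 5480 against 11101 to 12917). Of 9 tested, 6 were lower (Cd4, Cd8a, Cd8b1, Rag1, Ptcra and Ccr9) and 1, Dntt, was higher (log2 difference 1.59, adjusted p = 0.0129). Of 8 tested T-lineage genes, 1 passed as lower in the knockouts and none as higher, and the lowest log2 difference was −2.37. The part of these cell types, of maturation state or of sex in the members' differences was not tested.

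In DP thymocytes, loss of MBD2 went with no call among the 40 members, with limma at an adjusted p under 0.05. Across all genes, 0.0195% were called higher and 0.013% lower. At an unadjusted p under 0.05, 2 members passed, Gbp2 and Ifi47, and the share of all genes was 4.68%. The sign was negative (lower in the knockout) for 36 of 40 members, and the median log2 difference was −0.21 against −0.02 for all genes. Gbp2 read 441, 356 and 408 in wild-type and 300.2, 224 and 259 in knockout thymocytes (log2 difference −0.60, SE 0.14, adjusted p = 0.709). Ifi47 read 1377, 820.5 and 1047 against 324, 399 and 636 (log2 difference −1.25, SE 0.28, adjusted p = 0.639). For these 2, Igtp and Oas1a the arrays of the groups did not overlap, 4 members downward and 0 upward, where 4.58% of all genes did so downward and 4.06% upward.

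Wild-type thymocyte replicate 1 stood apart. It was the highest of its group for 35 of 40 members, where 32.5% of all genes were highest on that array. Usp18 read 509, 98.5 and 68.2 in this group and Ifit1 180.0, 30.7 and 37.0. The knockout thymocytes were level, with Usp18 at 119, 109 and 123 and Ifit1 at 39.2, 25.6 and 38.4. On the same array monocyte and macrophage genes summed to 849, against 449 and 420 on the other two, and H2-Aa, a class II antigen-presentation gene, read 424, 160.1 and 93.6 over the group. The part of such cells was not tested. Without this array the median log2 difference was 0.01 for type I and −0.04 for type II members, and again none was called.

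**Figure D4:**
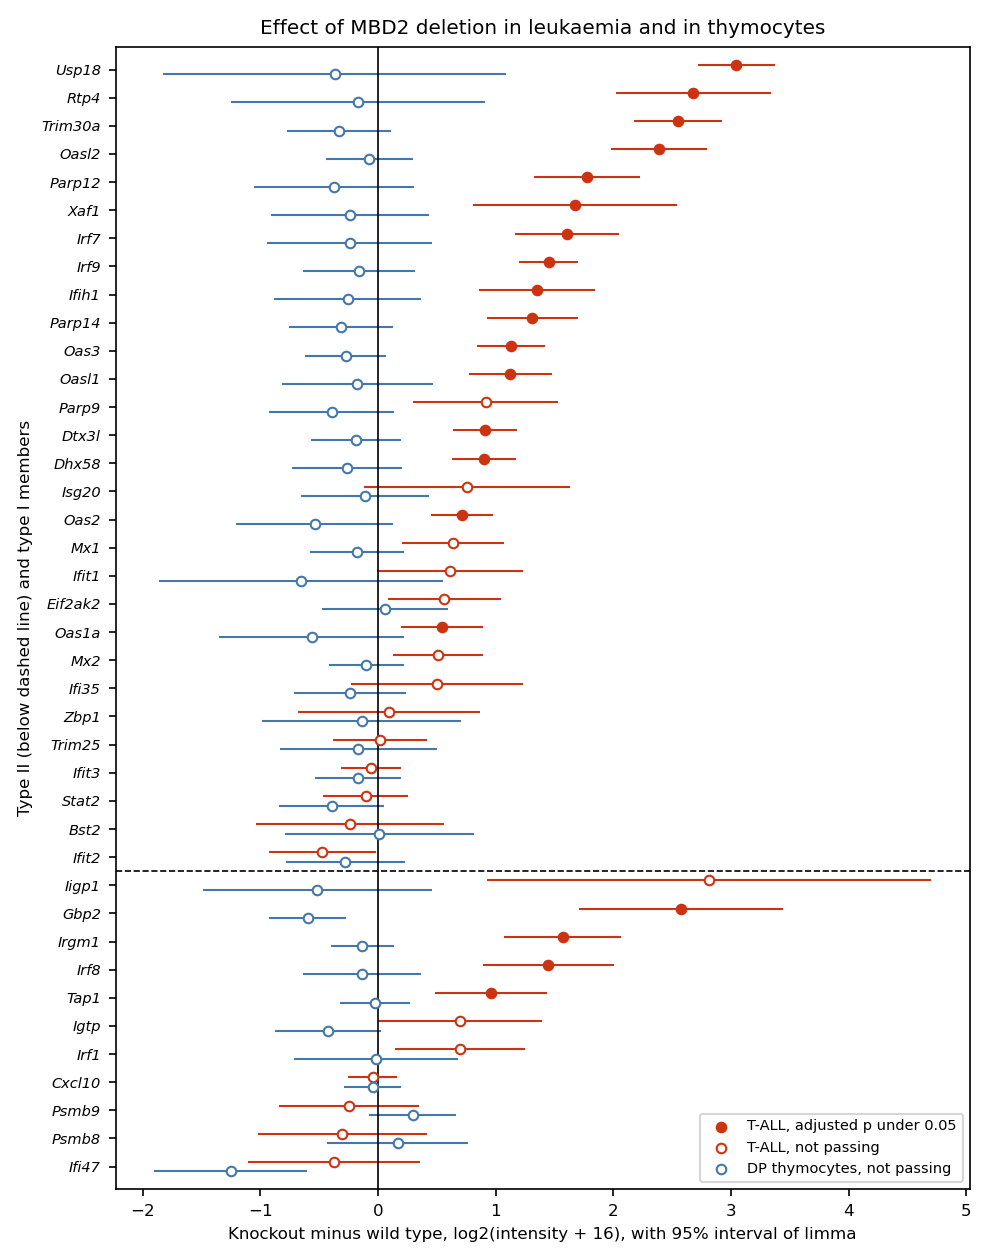
Knockout minus wild-type difference of each member on the log2(intensity + 16) scale in T-ALL (red) and in DP thymocytes (blue), with limma's 95% interval; filled points passed at an adjusted p under 0.05. In T-ALL 20 of 40 points are filled, all to the right of 0, and in thymocytes none is filled.

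The 2 effects, which share no array, were compared in 1 fit of all 12 arrays. The knockout minus wild-type effect was more positive in leukaemia than in thymocytes for 20 of 40 members and more negative for none, where 7.86% and 4.74% of all genes passed. In the leukaemias genotype cannot be told apart from sex, which enters this difference. Of those that passed, the largest fitted values were those of Usp18 (log2 difference 3.41, SE 0.71, adjusted p = 0.00783), Gbp2 (log2 difference 3.17, SE 0.42, adjusted p = 0.000409), Trim30a (log2 difference 2.88, SE 0.26, adjusted p = 2.03e-05), Rtp4 (log2 difference 2.85, SE 0.60, adjusted p = 0.00803) and Oasl2 (log2 difference 2.46, SE 0.24, adjusted p = 4.11e-05). Usp18 and Oasl2 were below background in wild-type leukaemia, so their places in that order cannot be read. Parp9 passed here and Oas1a did not (adjusted p = 0.11). By class, 16 of 29 type I and 4 of 11 type II members passed, with median differences of 1.25 and 0.99. Without wild-type thymocyte replicate 1, 17 members passed and the medians were 0.93 and 0.87. Within the arrays without poly-A signal, 5 members passed and all 20 kept their direction.

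Against wild-type thymocytes, wild-type leukaemias had lower levels of 13 members and higher levels of 2, where 14.2% of all genes were lower and 19.7% higher. The median log2 difference of the members was −0.37 against 0.06 for all genes. The groups did not overlap for 19 members downward and 1 upward, where 18% and 27.6% of all genes did so. Gbp2, at 44.7 to 55.1 in leukaemia and 356 to 441 in thymocytes, had the largest difference of those above background in both groups (log2 difference −2.70, SE 0.12, adjusted p = 1.9e-05). Igtp read 738, 579 and 733 against 3019.9, 1987 and 1984 (log2 difference −1.73, SE 0.19, adjusted p = 0.000597). Trim30a (log2 difference −1.47, SE 0.17, adjusted p = 0.000667), Irf9 (log2 difference −0.89, SE 0.19, adjusted p = 0.0101), Stat2 (log2 difference −0.92, SE 0.17, adjusted p = 0.0051), Parp14 (log2 difference −0.88, SE 0.20, adjusted p = 0.0132) and Ifit2 (log2 difference −0.88, SE 0.22, adjusted p = 0.0192) were lower as well. The others were Usp18 (at least 4.27-fold lower), Iigp1 (at least 1.84-fold lower), Irf1, Ifih1, Parp12 and Oasl2. Oasl2 was below background in both groups. The 2 higher members were Psmb9 (log2 difference 1.00, SE 0.20, adjusted p = 0.00741) and Bst2 (log2 difference 1.10, SE 0.35, adjusted p = 0.047). With the replicate number as a block, 16 members were lower and 4 higher, where 2937 and 4043 of all 15420 genes were. The added calls were Irf7 (adjusted p = 0.00802), Ifit1 (0.0118) and Rtp4 (0.0341), lower, and Psmb8 (0.00309) and Eif2ak2 (0.043), higher. Leaving out wild-type leukaemia 1, 2 or 3 left 8, 6 or 7 lower members, and leaving out wild-type thymocyte replicate 1 left 11. The class medians, −0.42 for type I and −0.28 for type II, were −0.18 and −0.16 without that thymocyte array, and the type II median was −0.11 without wild-type leukaemia 2.

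Between the knockouts, 20 members were higher in leukaemia than in thymocytes and 2, Stat2 and Ifit2, were lower, where 18.5% and 11% of all genes were. The median log2 difference was 0.75 against 0.01. The groups did not overlap for 26 members upward and 2 downward, where 24.4% and 17.7% of all genes did so. Oasl2 (log2 difference 1.93, SE 0.20, adjusted p = 0.000385), Rtp4 (log2 difference 1.77, SE 0.33, adjusted p = 0.00573), Irf8 (log2 difference 1.66, SE 0.23, adjusted p = 0.00177), Oas1a (log2 difference 1.62, SE 0.14, adjusted p = 0.000167) and Oas3 (log2 difference 1.47, SE 0.13, adjusted p = 0.000239) had the largest fitted differences of those that passed. Oasl2 was below background in the knockout thymocytes, so it was at least 3.07-fold higher and its place in that order cannot be read. Gbp2 had levels of 689.9, 229 and 308 and 300.2, 224 and 259 and did not pass (adjusted p = 0.414). Ifit2 lay at 184, 120.1 and 134 against 268, 320.0 and 385 (log2 difference −1.08, SE 0.19, adjusted p = 0.0045). These comparisons share their groups with those above, so they are set side by side and are not independent. Over the 4 groups, wild-type leukaemia had the lowest mean for 24 of 40 members (20.9% of all genes) and knockout leukaemia the highest for 27 (22.0%).

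Upstream of the members, no interferon gene passed in any comparison. Of 16 ligand genes 10 had a probe set and 7 could be tested. Ifnb1, Ifna2, Ifna4, Ifna5, Ifna11, Ifnab and Ifng were at or below background on all 12 arrays. Ifna1 lay between 33.5 and 61.5, and Ifnz read 112, 93.8 and 139 in wild-type and 155, 155 and 224 in knockout leukaemias (adjusted p = 0.0944). RNA of the sorted cells does not show interferon made by other cells of the host.

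Receptor and kinase genes differed by chain. Ifnar1, Ifnar2, Ifngr1 and Ifngr2 did not pass between leukaemia genotypes, with log2 differences of −0.04, −0.17, 0.05 and 0.84. Il10rb, a chain of the interferon lambda and interleukin 10 receptors, was lower in the knockout (log2 difference −0.70, SE 0.17, adjusted p = 0.0358), and Ifnlr1 was below background on every array. Ifngr1 was lower in leukaemia than in thymocytes in both genotypes, at 458, 457 and 392 against 1686, 2017 and 1083 in wild type and 443, 549.6 and 374 against 1441, 1595 and 1751 in the knockout. Its log2 differences were −1.79 (adjusted p = 0.000939) and −1.79 (adjusted p = 0.000209). Ifnar1 was lower by a smaller step (−0.53, adjusted p = 0.0129, and −0.45, adjusted p = 0.026). Of the kinase genes, Jak1 and Jak2 passed and Tyk2 did not. Jak1 read 1211, 920.1 and 740.4 in wild-type and 1785, 2338 and 1613 in knockout leukaemias (log2 difference 1.00, SE 0.21, adjusted p = 0.0217). Jak2 read 300.4, 259.9 and 321 against 585, 747 and 720.1 (log2 difference 1.17, SE 0.14, adjusted p = 0.00155). Tyk2 did not pass (log2 difference 0.18, SE 0.13, adjusted p = 0.432). Among 11 tested sensing and adaptor genes, Ddx58 and the kinase gene Ikbke (log2 difference 0.66, adjusted p = 0.03) rose in the knockout leukaemias and none fell. Of all genes, 9.19% were higher and 6.98% lower in that comparison, and so small a count cannot be told from those shares.

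Of 11 tested negative regulators, 2 fell and none rose in the knockout leukaemias, where 6.98% of all genes were lower and 9.19% higher. Counts this small cannot be told from those shares. Socs3 read 34.2, 43.2 and 39.3 in wild-type and 23.5, 13.7 and 19.3 in knockout leukaemias (log2 difference −0.66, SE 0.14, adjusted p = 0.0179), the latter all below background, at least 1.1-fold lower. Samhd1, a nucleotide-depleting enzyme that restricts viruses and limits interferon production, read 143, 119.6 and 163 against 58.9, 64.7 and 46.5 (log2 difference −1.12, SE 0.15, adjusted p = 0.0029). Socs3 was lower in leukaemia than in thymocytes too (log2 difference −1.59, SE 0.21, adjusted p = 0.00135 in wild type), as was Socs1 (log2 difference −1.56, SE 0.30, adjusted p = 0.00643). Usp18, the negative regulator within the list, rose.

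**Figure D5:**
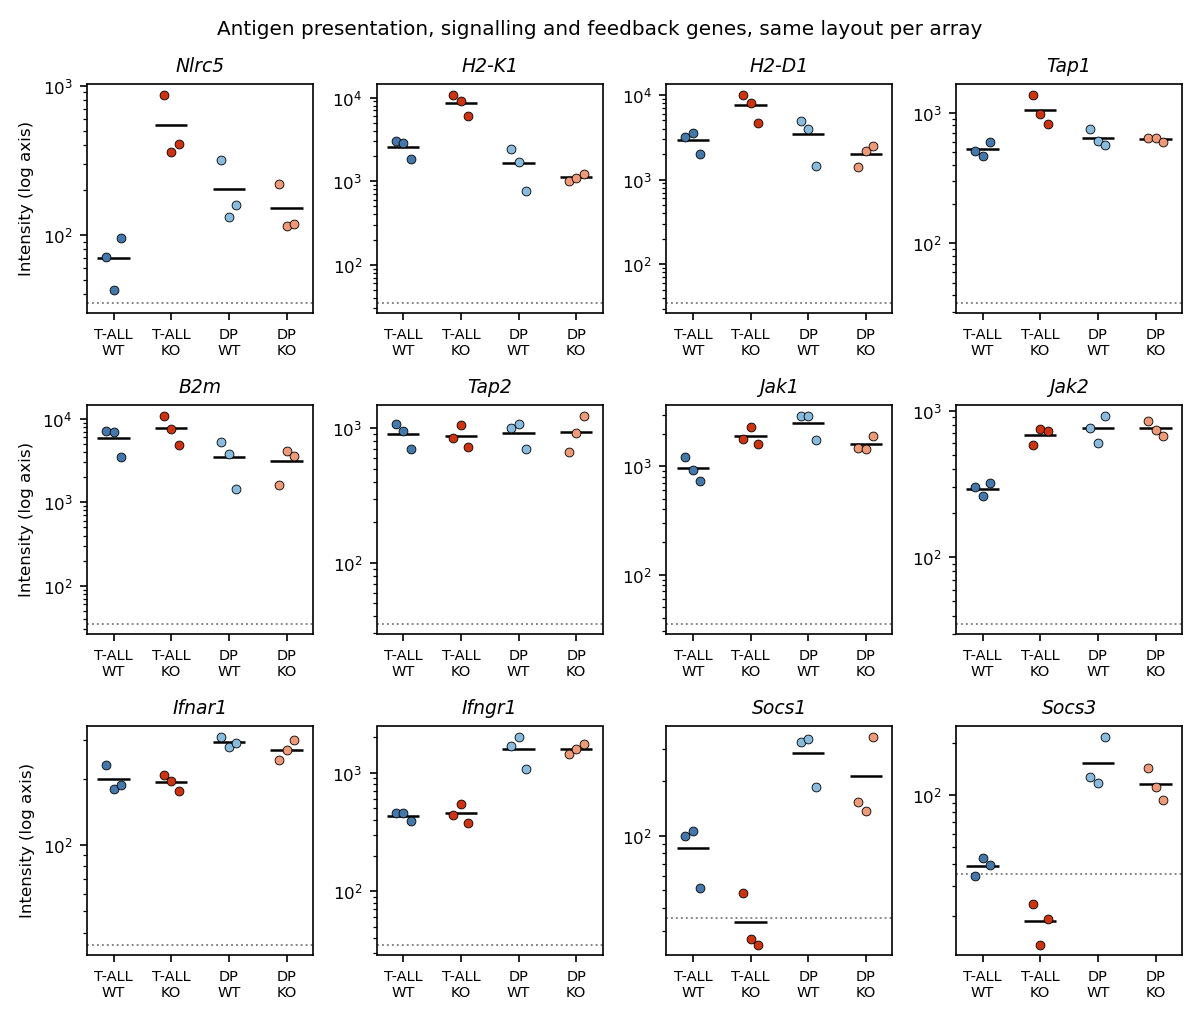
Intensity of 12 antigen-presentation, kinase, receptor and feedback genes on each array (points, log axis), with group means as bars and the background level of 35.3 dotted; WT is MBD2 wild type and KO is MBD2-/-. Nlrc5, H2-K1, H2-D1, Tap1, Jak1 and Jak2 are higher on every knockout than on every wild-type leukaemia array, and B2m, Tap2, Ifnar1 and Ifngr1 overlap.

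Genes of antigen presentation by MHC class I, a common target of interferon gamma, rose in 3 of 9 tested cases, where 9.19% of all genes did. Nlrc5, the transactivator of class I genes, read 71.7, 42.8 and 95.2 in wild-type and 867, 360.4 and 406 in knockout leukaemias (log2 difference 2.64, SE 0.37, adjusted p = 0.00367). H2-K1, a class I heavy chain, read 3056, 2847 and 1843 against 10747, 8982 and 5941 (log2 difference 1.71, SE 0.27, adjusted p = 0.0065). H2-D1, the other heavy chain measured, read 3150.4, 3554 and 1994 against 9975, 8052 and 4707 (log2 difference 1.36, SE 0.32, adjusted p = 0.0324). The heavy-chain genes are closely similar and differ between mouse strains, so these probe sets may read several of them. B2m, the light chain, was not called (adjusted p = 0.551), nor were Tap2, Tapbp, Psmb10, Psme1 and Erap1. None of 6 tested MHC class II genes passed between the leukaemias, and Ciita, their transactivator, averaged 27.3 and 32.3, under the background level.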

How the data were processed

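The authors deposited 1 table of linear probe set intensities, summarized before deposit; how they summarized and normalized them is not stated in the labels or the file. From these deposited intensities, log2(intensity + 16) was computed here without further normalization. Genes above their array's 25th percentile on at least 3 arrays were tested (15420 of 18193). Of 45101 probe sets, 34945 name 1 gene in the platform annotation; the 932 with several genes and the 9160 with none were not used. Each comparison was fitted with limma 3.58.1 in R 4.3.3 (lmFit, eBayes; adjusted p under 0.05, Benjamini-Hochberg over all genes tested), and the difference of effects in a fit of all 12 arrays. All adjusted p-values and 95% intervals are limma's, and an exact test of 3 against 3 arrays cannot go below p = 0.1. The number of arrays limits the precision. Plots used matplotlib 3.10.9. The fit was tested on simulated data.

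The members, lists and tests were chosen with earlier results of these data known. Every member may be named; values on each array are given for the 12 members with the smallest p between leukaemia genotypes and, chosen after their values were seen, for others that a result turns on. Equal replicate numbers may pair the samples. After group means were taken off, arrays of equal number correlated at 0.40, 0.24 and 0.55 between leukaemia genotypes. Arrays of unequal number correlated at −0.49 to 0.22 there. Between wild-type groups the values were 0.45, 0.44 and 0.58, and −0.50 to 0.18. Blocked values are given for both comparisons. In these groups replicate 1 had poly-A signal and a low Gapdh ratio, and replicate 3 had neither. Pairing and these features therefore cannot be told apart, and a call with the block is not one from known pairs. The alternatives were other normalizations, filters, added constants (1 and 64), probe set means, eBayes settings, array weights, blocks, covariates and leaving out each array. Fits on only the arrays with or without poly-A signal were added after seeing the data.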

Additional observations from a re-analysis of the deposited data

Results flagged for a closer look

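The knockout minus wild-type effect differed between leukaemia and thymocytes for 20 members, each with the more positive effect in leukaemia. The test was limma's test of that difference over all 12 arrays (adjusted p under 0.05). In the leukaemias the sex of the cells cannot be told apart from genotype, so the part of the deletion in this difference was not tested. On the log2 scale the differences of the effects among type I members were Trim30a 2.88, Oasl2 2.46, Oas3 1.41, Irf9 1.61, Parp14 1.62, Parp12 2.15, Dtx3l 1.09, Dhx58 1.16, Irf7 1.84, Usp18 3.41, Rtp4 2.85, Ifih1 1.61, Oasl1 1.30, Oas2 1.25, Xaf1 1.91 and Parp9 1.31. Among type II members they were Gbp2 3.17, Irgm1 1.70, Irf8 1.58 and Tap1 0.99. No member had a more negative effect in leukaemia that passed. Wild-type thymocyte replicate 1, the array on which 35 of 40 members were highest in their group, enters these values, and 17 members passed without it.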

How the results depend on the processing

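No member that passed changed its direction under any alternative. For the 20 members between leukaemia genotypes, leaving out arrays could not change it, since their groups do not overlap. Of the 20 members higher in knockout leukaemia, 16 passed under every alternative other than the fits on poly-A subsets, and Oas1a, Oas2, Tap1 and Xaf1 lost the call under at least 1. Leaving out each array gave 17 to 23 higher and 0 lower members there, with class medians of 0.76 to 0.93 (type I) and 0.47 to 0.94 (type II). The type I and type II medians there were 0.76 and 0.70 with probe set means and 1.03 and 0.71 with a constant of 1. They were 0.63 and 0.66 with a constant of 64, and 0.90 and 0.94 with array weights. With the replicate block, 1 member was lower.

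Between wild-type leukaemia and thymocytes, higher members numbered 1 with no filter or a constant of 64, and 4 with probe set means, the replicate block or a covariate for the Gapdh 3'/5' ratio. Lower members numbered 21 with array weights and 8 with a constant of 64. Leaving out each array gave 1 to 3 higher and 6 to 18 lower. Of the 15 members called there, only 7 passed under every alternative other than the fits on poly-A subsets. These were Gbp2, Igtp, Irf9, Parp14, Psmb9, Stat2 and Trim30a. Between knockout leukaemia and thymocytes 1 member was lower with no filter, probe set means, the replicate block or a constant of 64. Of the 22 members called between the knockouts, 17 passed under every such alternative, and Stat2 was not among them. Leaving out each array gave 17 to 27 higher and 1 to 2 lower, with medians of 0.78 to 1.09 (type I) and 0.26 to 0.75 (type II). The type I median was 0.65 with a constant of 64, and the type II median 0.71 with array weights and 0.26 with a block for poly-A signal.

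For the difference of effects 1 member, Psmb9, was more negative with that block. The type I and type II medians were 0.90 and 0.93 with a constant of 64 and 1.42 and 1.24 with array weights. Leaving out each array gave 15 to 20 members, with medians of 0.93 to 1.33 and 0.77 to 1.15. Of the 20 members that passed, 15 did so under every alternative other than the fits on poly-A subsets. Centring on the 75th percentile moved the median of all genes by −0.13 in this fit.

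On only the arrays with poly-A signal, chosen after seeing the data, 4 members were higher in wild-type leukaemia than thymocytes. The medians between leukaemia genotypes were 0.93 (type I) and 1.45 (type II) on the arrays with this signal. On only those without it, 0 members were called between leukaemia genotypes (type I median 0.77), the type II median between knockouts was 0.26, and the difference of effects gave 5 members with medians of 0.83 and 0.46. The causes of these shifts were not tested.

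Arrays of equal number correlated at −0.52, 0.14 and −0.49 between thymocyte genotypes and at −0.39, 0.09 and −0.43 between knockouts. Whether these samples were paired cannot be read from such values. There the replicate block gave 0 members between thymocyte genotypes and 22 higher and 1 lower between knockouts. For the difference of effects it gave 22 and 0. Between thymocyte genotypes, knockout replicate 1 correlated with wild-type replicate 3 at 0.53, and knockout replicate 3 with wild-type replicate 1 at 0.59. The Gapdh 3' over 5' ratios of these arrays were 3.33 and 3.68, and 1.12 and 1.08. Whether the correlations follow sample pairs, RNA integrity or poly-A signal was not tested.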

Other observations

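Several other genes of interferon sensing, feedback and antigen processing differed between leukaemia and thymocytes in both genotypes, by limma's log2 difference in wild-type and then knockout cells. Higher in leukaemia were the RNA-sensing adaptor gene Mavs (0.59 and 1.36, adjusted p = 0.00934 and 0.000146) and the Toll-like receptor chaperone gene Unc93b1 (0.44 and 0.97, adjusted p = 0.0479 and 0.0119). The same held for the phosphatase gene Ptpn2 (0.98 and 0.92, adjusted p = 0.0195 and 0.0135), which damps JAK signalling. The peptide-processing genes Psmb10 (1.08 and 0.73, adjusted p = 0.00418 and 0.0463) and Erap1 (1.35 and 1.37, adjusted p = 0.000339 and 0.000611) were higher as well. Lower in leukaemia were the interferon-inducing factor gene Irf3 (−0.49 and −0.51, adjusted p = 0.0416 and 0.0399), the STAT inhibitor gene Pias1 (−1.07 and −0.99, adjusted p = 0.000299 and 0.00136) and Socs1 (−1.56 and −2.12, adjusted p = 0.00643 and 0.0034). These comparisons share no array with each other, and which feature of the leukaemias they follow was not tested.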
